A study of Saccharomyces cerevisiae with 12 samples.

Results

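The genes described here encode the 2 vesicle coats that move cargo between the endoplasmic reticulum (ER) and the Golgi apparatus, with the receptors, SNAREs, and tethers that serve them. They were taken by systematic name from the count file, and all 42 were found among its 7126 genes and passed the filter on low counts, which left 6044 genes. By direction, 26 were grouped as forward (9 of the COPII coat and its regulators, 11 cargo receptors, and 6 SNAREs and tethers), 14 as retrograde (9 of the COPI coat and Arf, and 5 that act at the ER in return traffic), and 2, SEC17 and SEC18, as serving both. The samples were steady-state, carbon-limited chemostat cultures of 3 Saccharomyces cerevisiae strains that secrete α-amylase, each grown at 2 dilution rates, 0.1/h or 0.2/h, in biological duplicate. AAC is the CEN.PK-derived parent, in which most of TPI1, the gene of triose phosphate isomerase, was replaced by a loxP-flanked KanMX4 cassette, and it carries the plasmid pAlphaAmyCPOT. On this multicopy plasmid the TPI1 promoter drives an amylase gene fused to the leader of alpha factor, and the POT1 gene of Schizosaccharomyces pombe takes the place of TPI1. MH34 came from AAC by UV mutagenesis and selection, and B184 came from MH34 in the same way, so each evolved strain is 1 selected line and all 3 share the deletion and the plasmid. The labels grade protein productivity as low for AAC, medium for MH34, and high for B184. This order does not hold in the chemostats at the lower dilution rate, where the paper reports lower amylase productivity in B184 than in MH34. At the higher rate the paper reports B184 only modestly above MH34, and it places both evolved strains above AAC at either rate. No measurement of productivity in these cultures was analysed here. At 0.1/h the cultures of the evolved strains received ethanol, which is not stated for AAC, so strain and ethanol cannot be told apart in the comparisons with AAC at that rate. Ethanol is stated for the evolved strains at 0.1/h only, so rate and ethanol cannot be told apart in the comparisons of rates within MH34 and within B184 either, nor in the interactions.

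COPII buds from the ER and carries newly made proteins forward. The GTPase Sar1, loaded with GTP by the exchange factor Sec12, recruits the inner coat of Sec23 and Sec24 and then the outer cage of Sec13 and Sec31, at exit sites that Sec16 organizes. COPI, a coat of 7 coatomer subunits recruited by the GTPases Arf1 and Arf2, returns escaped ER proteins, receptors, and SNAREs from the Golgi. Cargo receptors connect soluble and membrane cargo to the coats. Erv29 is the one known to carry glycosylated pro-alpha-factor, whose leader the amylase also has, and Erd2 returns ER proteins that end in HDEL.

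Levels are given as CPM, the count of a gene relative to its TMM-scaled library total, and differences as log2 fold changes with the standard error (SE) of the fit. Each adjusted p comes from the quasi-likelihood test of edgeR, adjusted by Benjamini-Hochberg across the 6044 genes. A gene was called at an adjusted p under 0.05. The libraries held between 6040221 and 10785960 counts, and the 42 genes took between 0.821% and 1.06% of them. The 4 smallest libraries were those of AAC and of B184 at 0.1/h. CPM is a share of the mRNA of a culture, so a change of all mRNA per cell would not appear in it. TPI1, which is deleted in all 3 strains, had between 132 and 637 counts in each library. The MH34 libraries at 0.1/h were nearer to the 0.2/h libraries of the evolved strains than to the other libraries at their own rate. Over the 42 genes, the median absolute log2 difference of MH34 at 0.1/h was 0.41 to AAC at 0.1/h and 0.256 to B184 at 0.1/h, against 0.209 to MH34 at 0.2/h and 0.21 to B184 at 0.2/h. Over all 6044 genes it was 0.459 and 0.408 to AAC and B184 at 0.1/h, against 0.189 and 0.185 to MH34 and B184 at 0.2/h. The pattern was thus not particular to the 42 genes. Between replicates the median over the 42 genes ranged from 0.0372 to 0.105.

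**Figure D1:**
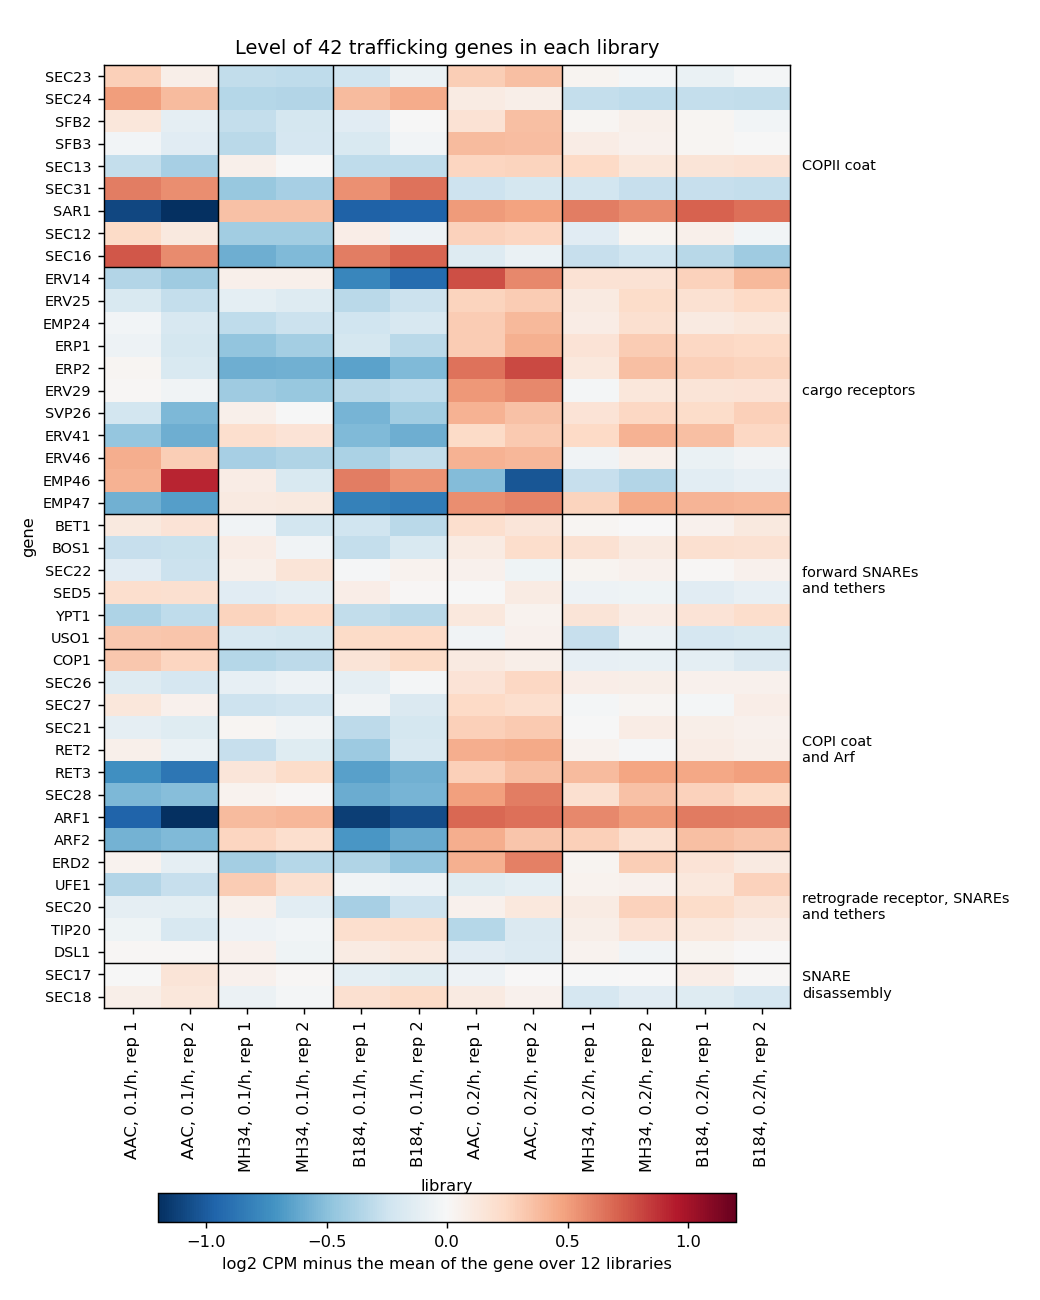
Level of each of the 42 genes (rows, grouped by class) in each of the 12 libraries (columns), as log2 CPM minus the mean of the gene over all libraries. SAR1, ARF1, ARF2, RET3, and EMP47 were low, and SEC31 and SEC16 high, in AAC and B184 at 0.1/h, whereas MH34 at 0.1/h looked like the 0.2/h libraries for these genes.

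Some of the genes belong to close families, and ARF1 and ARF2 are the pair for which shared reads matter most. Both lie on chromosome IV, ARF1 (YDL192W) at chrIV:116321-116866 and ARF2 (YDL137W) at chrIV:216529-217074, each on the plus strand with a single exon of 546 bases (RefSeq, R64). Their coding sequences were 89.6% identical. The stretch with their longest identical run, 40 bases, is shown 5′ to 3′ with the 7 differing bases in capitals, at chrIV:116733-116802 for ARF1 and chrIV:216941-217010 for ARF2.
ARF1: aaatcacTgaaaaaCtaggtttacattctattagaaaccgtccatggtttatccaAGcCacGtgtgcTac
ARF2: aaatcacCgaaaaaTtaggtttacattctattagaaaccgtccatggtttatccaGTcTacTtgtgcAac
No window of 150 bases was identical in the 2 genes, so a read of that length with no error would tell them apart, while a shorter one inside the run would not. How reads that map to both genes were counted is not given in the sources used here. SEC24 and its paralogs SFB2 and SFB3 were at most 59.3% identical, and EMP46 and EMP47 were 55.3% identical, with runs of at most 20 bases. None of the 42 genes overlapped another annotated gene in RefSeq.

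Promoters were read as 250 bases before to 50 bases after the first base of the start codon, and searched on both strands for the core of the unfolded protein response element, CAGCGTG. It was found in 2 of the 42 promoters (4.76%), against 70 of 6020 promoters of all genes (1.16%). The holders were SEC31, which encodes the outer COPII subunit, and SEC20, which encodes an ER SNARE of return traffic. They are printed 5′ to 3′ on the strand of the gene because they are the only members with this element, with the matches in capitals (in SEC20, the reverse complement CACGCTG). SEC31 is read at chrIV:106958-107257 on the plus strand and SEC20 at chrIV:1446945-1447244 on the minus strand (R64).
SEC31: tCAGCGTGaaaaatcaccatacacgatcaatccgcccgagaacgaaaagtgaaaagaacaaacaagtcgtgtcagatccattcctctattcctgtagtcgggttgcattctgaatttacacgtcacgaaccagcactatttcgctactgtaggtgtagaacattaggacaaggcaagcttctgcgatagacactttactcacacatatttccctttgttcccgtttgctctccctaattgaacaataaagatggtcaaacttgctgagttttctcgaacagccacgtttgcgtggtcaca
SEC20: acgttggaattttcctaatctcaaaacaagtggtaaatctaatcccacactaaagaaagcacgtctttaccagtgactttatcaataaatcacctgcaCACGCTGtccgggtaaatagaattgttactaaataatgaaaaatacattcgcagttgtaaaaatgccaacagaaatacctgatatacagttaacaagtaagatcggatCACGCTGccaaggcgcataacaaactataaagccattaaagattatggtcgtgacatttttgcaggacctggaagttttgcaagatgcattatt
The match in SEC31 lay at bases -249 to -243 from the start codon, and those in SEC20 at -152 to -146 and -44 to -38. A second motif of the unfolded protein response, TACGTG, was in 6 of the 42 promoters (14.3%), against 7.72% of all promoters. The stress response element AGGGG was in 8 (19.0%), against 21.6%. These are matches of letters only.

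Per kb of coding length, levels within the pathway spanned a wide range. ARF2 had the highest mean over the 6 groups, 1085 CPM per kb, followed by YPT1, the Rab GTPase of ER-to-Golgi tethering, with 870.5 and ARF1 with 742. The p24 genes EMP24, ERP1, and ERV25, which encode partners in a receptor complex for membrane and GPI-anchored cargo, followed with 693, 645, and 623. At the low end were the long scaffold and tether genes, SEC16 with 22.9 and USO1, whose product tethers vesicles to the Golgi, with 16.4. Coat genes other than the GTPases lay between, with 152 CPM per kb for SEC23, 121 for SEC24, 107 for SEC31, and 99.3 for COP1. The order within this middle range varied between groups: SEC24 was above SEC23 in B184 at 0.1/h, and SEC31 was below COP1 in MH34 at 0.1/h and in each group at 0.2/h.

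In MH34 at 0.1/h the small GTPase genes of both coats were far above AAC, and some of the long coat genes, among them SEC16, SEC31, SEC24, and COP1, were below it. Others did not pass, such as SFB3 (-0.18 on the log2 scale), SEC26 (0.10), and SEC21 (0.11). SAR1 rose 2.85-fold, ARF1 2.86-fold, and ARF2 1.72-fold, whereas SEC16 fell 2.33-fold, SEC31 2.02-fold, and SEC24 1.73-fold. In all, 14 of the 42 genes were higher and 18 lower. Of all genes tested, 68.8% passed the threshold in this comparison, 35.5% higher and 33.3% lower, so the share of members that passed was near that of all genes. Of the calls, 13 higher and 13 lower held whichever single library was left out. The 5 lower calls lost without a library included SEC18 (adjusted p = 0.16 without replicate 2 of AAC, 0.23 without replicate 1 and 0.096 without replicate 2 of MH34), BET1 (0.11 without replicate 2 of MH34), and ERP1 (0.064 without replicate 1 of MH34).

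Of the 9 COPII genes, 2 were higher and 6 lower in MH34 at 0.1/h (22.2% and 66.7%), against 35.5% and 33.3% of all genes. SAR1 (YPL218W, chrXVI:138698-139409, plus strand, 2 exons) had 109 and 98.9 CPM in the AAC libraries and 296 and 297 in those of MH34, a log2 fold change of 1.51 (SE 0.07, adjusted p = 3.1e-08). The MH34 replicates were nearly the same and lay far outside the range of AAC. SEC13, whose product is also a nuclear pore subunit, rose by 0.37. SEC31 (YDL195W, chrIV:107208-111029), its partner in the outer cage, had 599 and 576 CPM in AAC and 285 and 297 in MH34, which is -1.01 on the log2 scale (SE 0.07, adjusted p = 4.4e-07). The cage genes thus moved in opposite directions. SEC16 (YPL085W, chrXVI:387067-393654) had 238 and 211 CPM in AAC and 94.5 and 98.5 in MH34, the lowest log2 fold change of the 42 genes, -1.22 (SE 0.08, adjusted p = 2.1e-07). SEC24, which binds cargo in the inner coat, had 464 and 427 CPM in AAC and 258 and 256 in MH34, a log2 fold change of -0.79. SEC12, the exchange factor of Sar1, had 109 and 101 CPM in AAC and 69.9 and 69.8 in MH34, a log2 fold change of -0.59 (SE 0.08, adjusted p = 6.3e-05). The genes of the GTPase and of its activator therefore changed in opposite directions, in a comparison where 68.8% of all genes passed. They also differ in coding length, with 573 bases for SAR1 and 1416 for SEC12. Both calls held with the trend on coding length removed.

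Of the 11 cargo receptors, 4 were higher and 5 lower in MH34 at 0.1/h (36.4% and 45.5%), against 35.5% and 33.3% of all genes. The genes of the Erv41-Erv46 complex, a receptor that returns certain ER proteins and cycles through both coats, parted. ERV41 had 66.7 and 60.9 CPM in AAC and 105 and 103 in MH34, a log2 fold change of 0.71 (adjusted p = 2.1e-05). ERV46 had 474 and 429 CPM in AAC and 265 and 273 in MH34, which is -0.75 (SE 0.08, adjusted p = 6.6e-06). The paralogous lectin-like receptors EMP47 and EMP46 parted as well. EMP47 had 96.1 and 90.9 CPM in AAC and 155 and 155 in MH34, a log2 fold change of 0.73 (SE 0.07, adjusted p = 5.4e-06). EMP46 had 79.6 and 113 CPM in AAC and 63.8 and 52.6 in MH34, with a log2 fold change of -0.73 and the widest error of the 42 genes (SE 0.18, adjusted p = 0.0047). Among the p24 genes, ERP2 fell by 0.50 and ERP1 by 0.31 on the log2 scale, while ERV25 (0.11, adjusted p = 0.23) and EMP24 (-0.17, adjusted p = 0.076) did not pass the test.

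All 6 forward SNARE and tether genes passed in this comparison, 3 in each direction, where 68.8% of all genes passed. YPT1 had 411 and 431 CPM in AAC and 643 and 630.2 in MH34, a log2 fold change of 0.60 (SE 0.07, adjusted p = 3.1e-05). BOS1 and SEC22, genes of 2 SNAREs of the ER-to-Golgi fusion complex, rose by 0.30 and 0.31, and BET1, another one, fell by 0.27. SED5, the syntaxin of the early Golgi, fell by 0.32 and USO1 by 0.53. The rise of BOS1 was lost without replicate 1 of MH34 (adjusted p = 0.055), and the fall of BET1 as given above. With the trend on coding length removed, the rises of BOS1 (adjusted p = 0.068) and SEC22 (adjusted p = 0.071) did not pass.

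Of the 9 genes of the COPI coat and Arf, 4 were higher and 2 lower in MH34 at 0.1/h (44.4% and 22.2%). The shares of all genes were 35.5% and 33.3%. ARF1 had 183 and 143 CPM in AAC and 462 and 469 in MH34, a log2 fold change of 1.51 (SE 0.10, adjusted p = 3.1e-07). Its replicates in AAC differed more than those in MH34, but the groups were far apart. ARF2 had 384 and 393 CPM in AAC and 681 and 652 in MH34, a log2 fold change of 0.78 (SE 0.08). RET3, the gene of the zeta subunit, had 105 and 96.4 CPM in AAC and 194 and 204 in MH34, a log2 fold change of 0.98 (SE 0.07, adjusted p = 5.5e-07). SEC28, which encodes the epsilon subunit, rose by 0.56, whereas COP1, the alpha subunit gene, fell by 0.62 and SEC27, the beta-prime subunit gene, by 0.34. The fall of SEC27 did not pass with the length trend removed (adjusted p = 0.062). SEC26, SEC21, and RET2, the genes of the beta, gamma, and delta subunits, had log2 fold changes of 0.10, 0.11, and -0.20 that did not pass the test. Among the 5 genes that act at the ER in return traffic, UFE1, the ER syntaxin, had 69.2 and 73.0 CPM in AAC and 109 and 101 in MH34, a log2 fold change of 0.56 (SE 0.07, adjusted p = 4.7e-05). ERD2 was the single lower gene of the 5, and SEC20, TIP20, and DSL1 did not pass.

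Coding length moved with these changes. Over the 42 genes, the Spearman correlation of the log2 fold change of MH34 over AAC at 0.1/h with coding length was -0.57, and over 5712 genes with an annotated length it was -0.21. Genes share libraries and are not replicates, so this is a description. The 19 members under 1000 bases had a median log2 fold change of 0.31 and the 14 over 2000 bases one of -0.30, against 0.19 and -0.20 for all genes of these lengths. When the trend of counts on length was removed within each library, 13 of the 42 genes were higher and 16 lower, SAR1 had a log2 fold change of 1.32, ARF1 of 1.31, SEC31 of -0.78, and SEC16 of -0.92, and the correlation over the members was -0.33. With all libraries thinned to 6040221 counts, again 14 were higher and 18 lower.

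**Figure D2:**
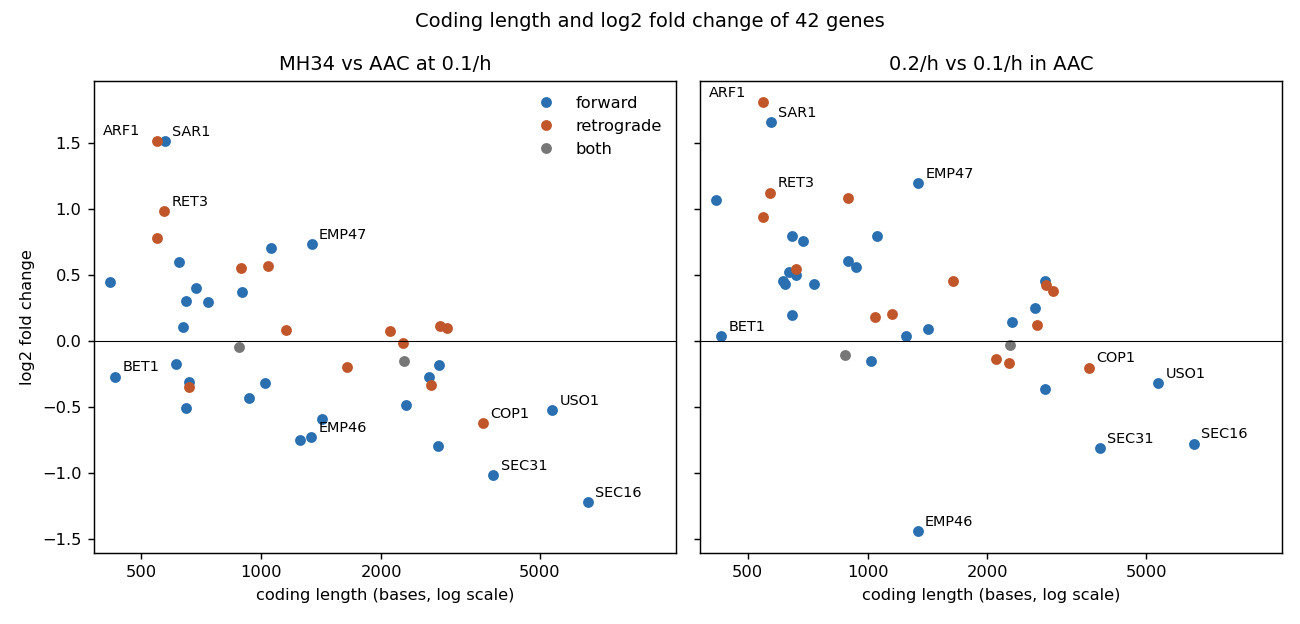
Coding length in bases (log scale) against log2 fold change for the 42 genes, for MH34 over AAC at 0.1/h (left) and 0.2/h over 0.1/h in AAC (right), with forward, retrograde, and shared genes in separate colors. Short genes such as SAR1 and ARF1 lie at the top and long ones such as SEC31 and SEC16 at the bottom, while EMP46, EMP47, and BET1 lie off this trend.

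In B184 at 0.1/h the pathway lay close to AAC. SAR1 had 119 and 119 CPM in B184, ARF1 163 and 171, SEC31 573 and 614, and SEC24 425 and 445, near the AAC libraries at this rate. Of the 42 genes, 4 were higher and 10 lower, against 36.9% of all genes that passed, 16.5% higher and 20.4% lower. The median absolute log2 difference between B184 and AAC at 0.1/h was 0.123 over the members and 0.233 over all genes. The count was sensitive to single libraries, with 8 members passing without replicate 1 or without replicate 2 of B184. TIP20, which encodes a subunit of the Dsl1 tether that receives COPI vesicles at the ER, was the single higher call that held in every one of these fits. It had 95.7 and 87.1 CPM in AAC, 95.1 and 96.9 in MH34, and 115 and 115 in B184, and in B184 a log2 fold change of 0.33 (SE 0.08, adjusted p = 0.0075). The lower calls that held were ERV14, ERP2, ERV29, ERV46, and BET1. ERV14 had 106 and 101 CPM in AAC, 141 and 141 in MH34, and 78.9 and 71.7 in B184, and in B184 a log2 fold change of -0.46 (adjusted p = 0.0018). BET1 had 71.7 and 74.0 CPM in AAC and 55.8 and 52.6 in B184, a log2 fold change of -0.43 (SE 0.08, adjusted p = 0.0019). RET2 had 248 and 225 CPM in AAC, 197 and 216 in MH34, and 177 and 209 in B184, and in B184 a log2 fold change of -0.30 (adjusted p = 0.023), which was lost without replicate 1 of AAC (adjusted p = 0.1) or of B184 (0.19). SEC17, the adaptor of the SNARE-disassembling ATPase, had 178 and 199.6 CPM in AAC and 165 and 161 in B184, with a log2 fold change of -0.21 (adjusted p = 0.035) that was lost when replicate 2 of AAC (adjusted p = 0.17) or either replicate of B184 (0.089 and 0.14) was left out. The small rise of SAR1, 0.19 (adjusted p = 0.048), was lost when replicate 2 of AAC (adjusted p = 0.19) or either replicate of B184 (0.14 each) was left out.

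At 0.2/h, 4 COPII genes and 5 receptor genes were lower in MH34 than in AAC, and 6 and 5 in B184. In MH34, 15 of the 42 genes were lower and 1 was higher, against 15.7% lower and 17.4% higher of all genes (33.1% in all). In B184, 17 were lower and 4 higher, against 17.7% and 18.4% of all genes (36.2% in all). The median log2 fold change of the members was -0.16 in each strain, and that of all genes was -0.01 and -0.02. Both comparisons use the same AAC libraries. The direction depended in part on the scaling: with library totals in place of TMM, which moved the median of all genes to 0.11 in MH34 and 0.07 in B184, 5 members were higher and 6 lower in MH34, and 6 higher and 8 lower in B184. The counts were also sensitive to single libraries. In MH34 they fell to 10 without replicate 2 of AAC and to 9 without replicate 1 of MH34, and in B184 to 11 without replicate 2 of AAC or replicate 1 of B184, and to 8 without replicate 2 of B184.

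The calls at 0.2/h that held whichever library was left out in MH34 were the falls of SEC24, ERV14, ERP2, ERV29, ERV46, and RET2 and the rise of TIP20, and in B184 those of SEC24, SFB3, ERP2, ERV29, and ERV46 with the rise of TIP20. SEC24 had 350.0 and 344 CPM in AAC, 269.5 and 266 in MH34, and 269 and 267 in B184, a log2 fold change of -0.37 in MH34 (SE 0.07, adjusted p = 0.0019) and -0.37 in B184 (adjusted p = 0.0018). No evolved library reached the AAC range. ERV14, the gene of a receptor for transmembrane cargo, had 232 and 203 CPM in AAC, 153 and 153 in MH34, and 164 and 178 in B184. Its log2 fold change was -0.51 in MH34 (SE 0.08, adjusted p = 0.00078) and -0.35 in B184 (adjusted p = 0.0066, but 0.057 with replicate 1 of AAC left out and 0.073 with replicate 1 of B184 left out). RET2, which encodes the delta subunit of coatomer, had 322 and 327 CPM in AAC, 246 and 236 in MH34, and 253 and 248 in B184, with log2 fold changes of -0.43 (adjusted p = 0.0037) and -0.37 (adjusted p = 0.0073, and 0.059 without replicate 2 of B184). TIP20 had 78.3 and 88.0 CPM in AAC, 105 and 111 in MH34, and 109 and 106 in B184, so that every evolved library was above both of AAC. Its log2 fold change was 0.38 in MH34 (adjusted p = 0.0038) and 0.37 in B184 (adjusted p = 0.0038). At 0.2/h the differences of SAR1, ARF1, and SEC31 between MH34 and AAC did not pass the test, with log2 fold changes of 0.09 (adjusted p = 0.3), -0.13 (adjusted p = 0.32), and -0.02 (adjusted p = 0.85).

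EMP46 and SEC18 were among the less certain calls at 0.2/h. EMP46 had 41.8 and 29.4 CPM in AAC and 54.8 and 55.7 in B184, a log2 fold change of 0.64 (SE 0.19, adjusted p = 0.026), but without replicate 2 of AAC it was 0.4 (adjusted p = 0.16), and it was lost without either replicate of B184 (adjusted p = 0.092 and 0.1). SEC18, the gene of the ATPase that takes SNARE complexes apart, had 195 and 187 CPM in AAC, 157 and 164 in MH34, and 162 and 158 in B184. Its log2 fold changes were -0.25 (adjusted p = 0.011) and -0.26 (adjusted p = 0.0084), and they did not pass without replicate 1 of AAC (adjusted p = 0.068 and 0.053), replicate 1 of MH34 (0.065), or replicate 2 of B184 (0.076). UFE1 had 79.8 and 81.5 CPM in AAC, 91.0 and 91.5 in MH34, and 96.5 and 107 in B184, with a log2 fold change in B184 of 0.34 (adjusted p = 0.0049, and 0.063 without replicate 2 of B184).

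A group of receptor genes was lower than AAC in the evolved strains at both rates. ERV29 (YGR284C, chrVII:1060658-1061590, minus strand, 1 exon), the receptor gene for pro-alpha-factor, had 336 and 323 CPM in AAC at 0.1/h, 247 and 242 in MH34, and 264 and 269 in B184. The levels at 0.2/h were 477 and 495 CPM in AAC, 325 and 365 in MH34, and 370.4 and 371 in B184. Each evolved library was below both AAC libraries of its rate. The log2 fold change in MH34 was -0.43 at 0.1/h (SE 0.07, adjusted p = 0.00032) and -0.49 at 0.2/h (SE 0.07, adjusted p = 0.0005). In B184 it was -0.31 (SE 0.07, adjusted p = 0.0078) and -0.39 (SE 0.07, adjusted p = 0.0021). Leaving out any single library lost none of these 4 calls. The call in B184 at 0.1/h was lost when the libraries of the other groups were left out of the fit (adjusted p = 0.1).

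**Figure D3:**
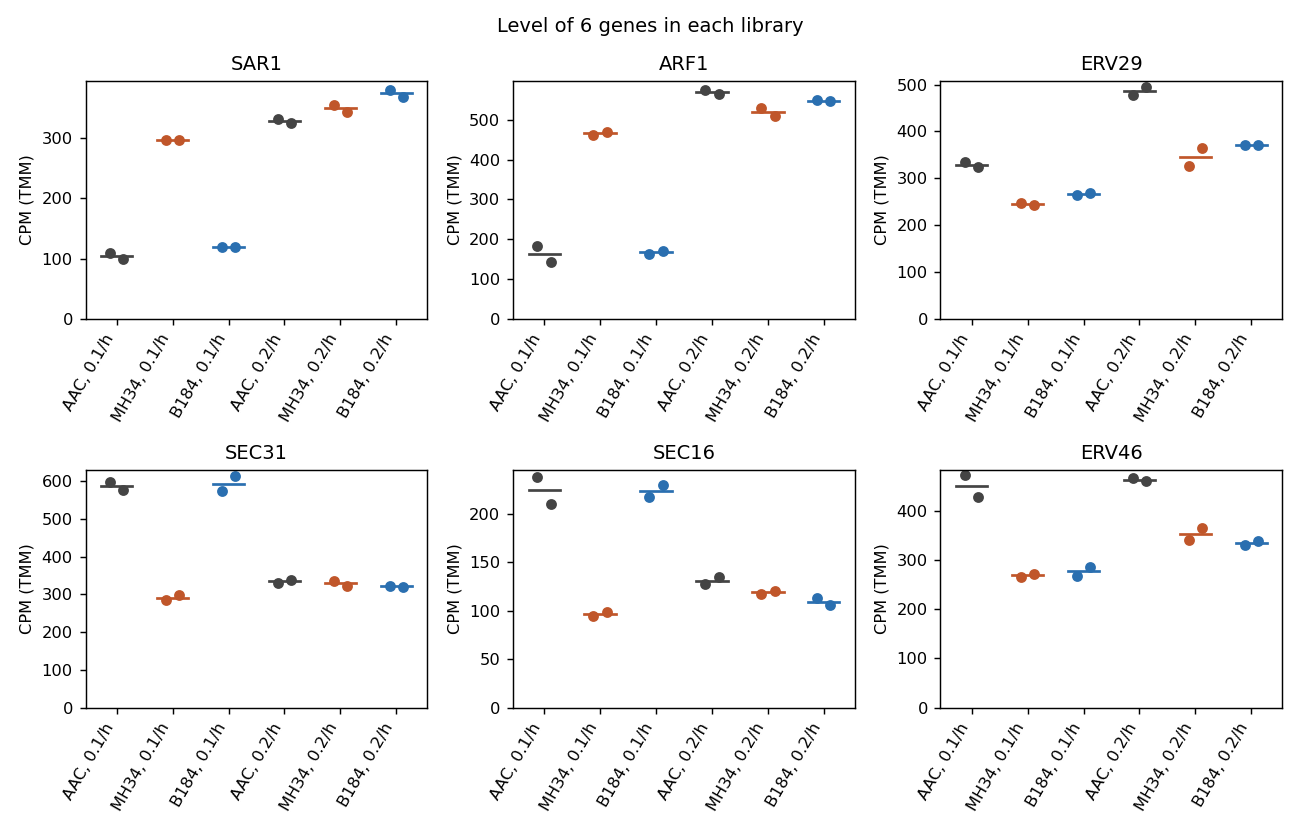
CPM (TMM scaled) of SAR1, ARF1, ERV29, SEC31, SEC16, and ERV46 in each library (points) with the mean of the 2 replicates (lines), AAC in gray, MH34 in orange, and B184 in blue. For SAR1, ARF1, SEC31, and SEC16, AAC and B184 at 0.1/h stand apart from the other 4 groups, while ERV29 and ERV46 are lower in the evolved strains than in AAC at either rate.

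ERV46 (YAL042W, chrI:61316-62563) had 268 and 286 CPM in B184 at 0.1/h, and at 0.2/h 467 and 461 in AAC, 341 and 365 in MH34, and 332 and 340.1 in B184. Its log2 fold changes were -0.75 and -0.70 in MH34 and B184 at 0.1/h, and -0.39 (adjusted p = 0.0026) and -0.47 (adjusted p = 0.00088) at 0.2/h. The AAC libraries were the 4 highest of all for this gene. ERP2, a p24 gene, had 169 and 146 CPM in AAC, 111 and 111 in MH34, and 107 and 115 in B184, all at 0.1/h. The levels at 0.2/h were 261 and 288 CPM in AAC, 182 and 214 in MH34, and 203 and 201 in B184. The log2 fold changes of ERP2 were -0.50 and -0.50 at 0.1/h, and -0.47 (SE 0.09, adjusted p = 0.0034) and -0.44 (SE 0.09, adjusted p = 0.0045) at 0.2/h. All 8 of these calls held whichever single library was left out and with the length trend removed.

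ERD2 (YBL040C, chrII:142112-142868, minus strand, 2 exons), the HDEL receptor gene of return traffic, moved in the same direction with less certainty. It had 204 and 183.7 CPM in AAC, 149 and 156 in MH34, and 154 and 143 in B184, all at 0.1/h, and 266 and 300.1, 202 and 243, and 221 and 213 at 0.2/h. At each rate both AAC libraries were above all 4 libraries of the evolved strains. Its log2 fold change was -0.35 (SE 0.10, adjusted p = 0.0084) in MH34 and -0.38 (adjusted p = 0.012) in B184 at 0.1/h. At 0.2/h it was -0.35 (adjusted p = 0.018) and -0.38 (adjusted p = 0.01). Each of these 4 differences of ERD2 between strains lost its call without at least 1 library: at 0.1/h without replicate 1 of AAC (adjusted p = 0.051 in MH34 and 0.06 in B184), replicate 1 of MH34 (0.061), or replicate 2 of B184 (0.09), and at 0.2/h without replicate 2 of AAC (0.13 and 0.087), replicate 1 of MH34 (0.14), or replicate 2 of B184 (0.08). Library totals as the scaling also lost the calls of ERD2 at 0.2/h (adjusted p = 0.14 in MH34 and 0.067 in B184). SEC23, the inner coat gene whose product stimulates GTP hydrolysis by Sar1, had 423 and 365 CPM in AAC, 283 and 281 in MH34, and 294 and 328 in B184, all at 0.1/h. The levels at 0.2/h were 426 and 447 CPM in AAC, 354 and 342 in MH34, and 328 and 341 in B184. The log2 fold changes of SEC23 were -0.48 in MH34 and -0.34 in B184 at 0.1/h, then -0.33 and -0.38 at 0.2/h, with adjusted p of 0.00044, 0.01, 0.014, and 0.0059. The call in MH34 at 0.1/h held whichever library was left out, and the others were lost in B184 without replicate 1 of its rate (adjusted p = 0.091 at 0.1/h and 0.056 at 0.2/h) and in MH34 at 0.2/h without replicate 2 of AAC (0.076) or of MH34 (0.084).

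B184 and MH34 were compared with each other at both rates. At 0.1/h, 10 of the 42 genes were higher in B184 and 15 lower, against 29.1% and 33.6% of all genes (62.6% in all). With library totals as the scaling, which moved the median of all genes from -0.04 to 0.10, the split was 17 higher and 11 lower. Some of the long coat genes were higher in B184, SEC16 by 1.21 on the log2 scale (SE 0.08, adjusted p = 3.3e-07), SEC31 by 1.03, SEC24 by 0.76, and COP1 by 0.52. COP1 was the single higher gene of the 9 of COPI and Arf, of which 5 were lower, among them SEC21 (-0.25, adjusted p = 0.0066), and SEC26, SEC27, and SEC23 did not pass. The GTPase genes were lower, with log2 fold changes of -1.48 for ARF1 (SE 0.10, adjusted p = 5.5e-07), -1.32 for SAR1, -0.88 for ARF2, and -0.57 for YPT1. The calls of SEC16, SEC31, SEC24, COP1, and these 4 genes held whichever single library was left out and with the length trend removed. ERV29, ERP2, and ERD2 had differences of 0.12, 0.00, and -0.03 between the evolved strains, none of which passed the test. At 0.2/h none of the 42 genes passed in edgeR or in DESeq2. An unadjusted p under 0.05 in edgeR was held by 0 of them, against 204 of the 6044 genes. Of all genes, 1 passed in edgeR (0.0165%). The log2 fold changes of the members ranged from -0.12 (SEC16) to 0.20 (EMP46), with a median SE of 0.0741.

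At the higher dilution rate, more of the pathway was higher than lower in each strain. In MH34 and B184 the cultures at 0.1/h had received ethanol, which cannot be told apart from the rate in these 2 strains. In AAC, 24 of the 42 genes were higher at 0.2/h and 7 lower, against 32.7% and 35.5% of all genes (68.2% in all). In B184, 25 were higher and 8 lower, against 33.9% and 32.7% (66.6% in all). In MH34, 18 were higher and 0 lower, against 13.5% and 13.3% (26.8% in all). An unadjusted p under 0.05 in edgeR was held by 25 of the 42 members in that strain, against 2436 of the 6044 genes. The median log2 fold change of the members was 0.40 in AAC, 0.33 in B184, and 0.18 in MH34, and that of all genes was between -0.03 and 0.01. Library totals as the scaling moved the median of all genes in AAC to -0.18 and the split to 22 higher and 11 lower. The count in MH34 was sensitive to single libraries, at 4 without its replicate 1 at 0.1/h, and 7 without its replicate 2 at 0.1/h or at 0.2/h.

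Of the 11 receptor genes, 9 were higher at 0.2/h in AAC, 10 in B184, and 7 in MH34. The counts were 7, 6, and 4 of 9 for COPI and Arf, and 4, 2, and 6 of 9 for COPII. Of all genes, 32.7%, 33.9%, and 13.5% were higher in AAC, B184, and MH34. In the same order, 1, 1, and 0 receptor genes were lower, as were 1, 1, and 0 of COPI and Arf. For COPII 3, 3, and 0 were lower (33.3%, 33.3%, and 0.0%), against 35.5%, 32.7%, and 13.3% of all genes. In B184, then, more COPII genes were lower than higher. In AAC, ERP2 rose by 0.80 (SE 0.10, adjusted p = 2.3e-05), ERV29 by 0.56 (SE 0.07, adjusted p = 4.4e-05), and EMP24 by 0.46 on the log2 scale. The rises of ERP2 were 0.83 in MH34 and 0.86 in B184, and those of ERV29 0.50 and 0.48. ERD2 rose by 0.55, 0.55, and 0.55 in AAC, MH34, and B184 (adjusted p = 0.00046, 0.0036, and 0.00048). ERP1, ERP2, ERV29, and ERD2 were the 4 genes whose rise in MH34 held whichever library was left out. ERP2, ERV29, and ERD2 were thus higher at the upper rate in each strain, and lower in both evolved strains than in AAC at each rate, with the ethanol of the evolved strains at 0.1/h not told apart from the rate or the strain. EMP46 went the other way, with falls on the log2 scale of 1.44 in AAC (SE 0.19, adjusted p = 8.6e-05) and 0.69 in B184 (adjusted p = 0.0065), while its paralog EMP47 rose by 1.2 and 1.23. EMP46 had 91.4 and 87.1 CPM in B184 at 0.1/h and 49.4 and 46.8 in MH34 at 0.2/h. EMP47 had 81.8 and 80.4 CPM in B184 at 0.1/h, and 212 and 217 in AAC, 173 and 196 in MH34, and 190.2 and 189 in B184, all at 0.2/h. At 0.1/h, then, the AAC and B184 libraries of EMP47 were below all others, and those of EMP46 above all others.

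The genes of the GTPases and small coat subunits were higher at the upper rate in AAC and B184, with smaller values in MH34. The difference between AAC and MH34 was tested as an interaction, described after the rate comparisons, and that between B184 and MH34 was not tested. SAR1 rose by 1.66 in AAC (SE 0.07, adjusted p = 3.6e-08) and by 1.65 in B184 (adjusted p = 3.0e-08). In MH34 the difference was 0.24 (adjusted p = 0.024), and it did not pass whichever of the 4 MH34 libraries was left out (adjusted p between 0.07 and 0.13). At 0.2/h SAR1 had 331 and 324 CPM in AAC, 355 and 343 in MH34, and 380.3 and 368 in B184. ARF1 reached 576 and 564 CPM in AAC, 529.8 and 509 in MH34, and 549 and 546 in B184 at that rate, with log2 fold changes over 0.1/h of 1.81, 0.16 (adjusted p = 0.26), and 1.72. ARF2 had 351 and 375 CPM in B184 at 0.1/h and reached 771 and 717 in AAC, 691 and 649.9 in MH34, and 732 and 715 in B184, with 0.94, 0.01 (adjusted p = 0.95), and 1.0. RET3, with 112 and 118 CPM in B184 at 0.1/h, had 214 and 225 in AAC, 229 and 244 in MH34, and 242 and 246 in B184, all at 0.2/h. It was higher at 0.2/h by 1.12 in AAC and 1.09 in B184 on the log2 scale. The same libraries stood apart for YPT1, which had 434 and 426 CPM in B184 at 0.1/h, and 584 and 549.8 in AAC, 594 and 567 in MH34, and 596 and 619 in B184, all at 0.2/h. YPT1 rose by 0.43 in AAC and 0.50 in B184, against -0.13 in MH34 (adjusted p = 0.21). In the opposite direction, SEC31 fell by 0.81 in AAC and 0.88 in B184, and SEC16 by 0.78 and 1.03, all 4 calls holding whichever single library was left out and with the length trend removed.

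SEC12 had 98.6 and 89.4 CPM in B184 at 0.1/h, and at 0.2/h 113 and 112 in AAC, 85.2 and 95.6 in MH34, and 97.2 and 91.4 in B184. Its log2 fold change at 0.2/h over 0.1/h was 0.09 in AAC (adjusted p = 0.32), 0.00 in B184 (adjusted p = 0.96), and 0.37 in MH34 (adjusted p = 0.0088, but between 0.061 and 0.079 without either replicate at 0.1/h or replicate 2 at 0.2/h). BOS1 had 62.6 and 62.8 CPM in AAC, 80.6 and 73.5 in MH34, and 62.1 and 66.9 in B184, all at 0.1/h. The levels at 0.2/h were 81.4 and 87.8 CPM in AAC, 85.9 and 81.8 in MH34, and 86.4 and 86.2 in B184, a log2 fold change with rate in AAC of 0.43 (adjusted p = 0.00043). BET1 had 64.3 and 56.6 CPM in MH34 at 0.1/h, and 76.1 and 73.3 in AAC, 67.1 and 66.3 in MH34, and 68.4 and 71.6 in B184, all at 0.2/h. Its difference between rates in B184, 0.37 (adjusted p = 0.0015), was 0.03 (adjusted p = 0.77) with the length trend removed. SEC17 had 186 and 180.3 CPM in MH34 at 0.1/h, and 172 and 179 in AAC, 179 and 180.1 in MH34, and 189.7 and 181 in B184, all at 0.2/h. Coding length moved with the rate comparisons too: its Spearman correlation with the log2 fold change over the 42 genes was -0.63 in AAC and -0.73 in B184, and -0.003 in MH34, against -0.19, -0.26, and 0.022 over all genes with a length. With the length trend removed, 25 members were higher and 6 lower in AAC, and 26 higher and 7 lower in B184. The falls of USO1 (-0.32 in AAC, -0.43 in B184) and COP1 (-0.20 and -0.34) did not hold in that fit, where USO1 had 0.03 in AAC and -0.02 in B184, and COP1 0.06 and -0.03.

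The dependence of the strain difference on the rate was tested as an interaction. For MH34 over AAC, 8 of the 42 genes had a more positive difference at 0.2/h and 15 a more negative one, against 26.6% and 26.6% of all genes (53.1% in all). The largest were ARF1 (-1.65, SE 0.14, adjusted p = 6.9e-06), SAR1 (-1.42, SE 0.10, adjusted p = 2.4e-06), EMP46 (1.17), and SEC16 (1.08). Library totals moved the median of all genes from 0.02 to 0.24 and the split to 16 and 9. EMP47, ERV14, and SEC28 were higher than AAC at 0.1/h and lower at 0.2/h in MH34. The 0.2/h side of EMP47 (-0.21, adjusted p = 0.038) was lost without either replicate of AAC (adjusted p = 0.086 and 0.14) or replicate 1 of MH34 (0.25), and that of SEC28 (-0.28, adjusted p = 0.012) without replicate 2 of AAC (0.089) or replicate 1 of MH34 (0.091). The 0.1/h side of ERV14 was lost with the length trend removed (adjusted p = 0.13). ERV29 and ERP2 had interactions of -0.07 and 0.04 on the log2 scale, with SE of 0.10 and 0.13, that did not pass. For B184 over AAC, SEC18 alone passed (-0.36, SE 0.09, adjusted p = 0.039), against 5.49% of all genes (3.26% with a more positive and 2.23% with a more negative difference), and the call was lost whichever of the 4 B184 libraries or of the AAC libraries at 0.2/h was left out (adjusted p between 0.068 and 0.16). By contrast, 6 genes passed without replicate 1 of AAC at 0.1/h. SEC18 had 190.1 and 198 CPM in AAC, 172 and 178 in MH34, and 207 and 212 in B184, all at 0.1/h.

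Forward and retrograde genes were then compared by their medians. In MH34 at 0.1/h the median log2 fold change over AAC was -0.27 for the 26 forward genes and 0.09 for the 14 retrograde genes, a difference of -0.36. In the other 3 comparisons with AAC the difference was -0.03, -0.03, and -0.06. Between rates the difference of medians was at most 0.03 in any strain (0.028 in AAC, 0.014 in MH34, 0.001 in B184). It depended on the summary in AAC and B184, where it was -0.306 and -0.313 with coat genes only, -0.208 and -0.194 with means, and -0.129 and -0.111 with the length trend removed. Without replicate 1 or 2 at 0.1/h it was 0.071 or -0.09 in B184, and without replicate 1 at 0.1/h it was 0.078 in MH34. A score per library, given below, had a pooled SD of 0.051 between replicates. That SD is not the spread of a difference of median fold changes or of an interaction. The largest differences of medians in the main fit were that of MH34 over AAC at 0.1/h and those of B184 over MH34 at 0.1/h (0.23) and the interaction of MH34 over AAC (0.23), which share the MH34 libraries at 0.1/h. The last was 0.128 and 0.286 without replicate 2 and without replicate 1 of MH34 at 0.2/h. Per library, as the forward minus the retrograde median of log2 CPM relative to each gene's mean, the score was -0.19 and -0.15 in MH34 at 0.1/h and between -0.05 and 0.10 in the other 10 libraries. No test is given for a score over chosen genes.

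**Figure D4:**
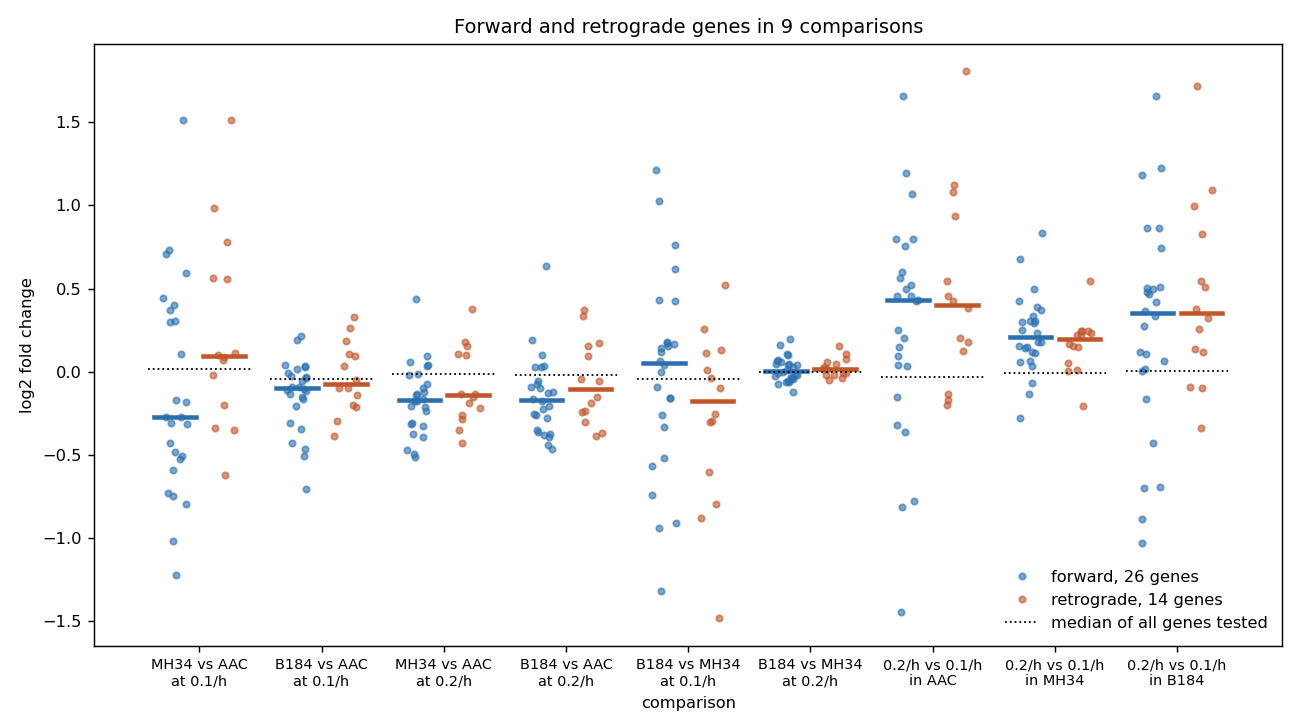
Log2 fold change of each forward gene (blue) and each retrograde gene (orange) in 9 comparisons, with the median of each group (bars) and of all genes tested (dotted lines). The medians part in MH34 over AAC and B184 over MH34 at 0.1/h, while between rates they lie within 0.03 of each other.

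In MH34 at 0.1/h, 9 forward genes were higher and 14 lower (34.6% and 53.8%), and 5 retrograde genes were higher and 3 lower (35.7% and 21.4%). Of all genes, 35.5% were higher and 33.3% lower in this comparison. The lower forward genes were mostly coat and receptor genes, among them SEC23, SEC24, SEC31, SEC16, ERV29, and ERV46, whereas the higher retrograde ones were the Arf genes, RET3, SEC28, and UFE1. ERV41 and ERV46 were grouped as forward, although their receptor, as said above, returns certain ER proteins and cycles through both coats. The spread within each direction exceeded the gap between them, since forward genes ranged from -1.22 to 1.51 and retrograde genes from -0.62 to 1.51. With the length trend removed, the difference of medians was -0.53. At 0.2/h the forward genes had 9 and 11 falls in MH34 and B184 of 26, and the retrograde genes 5 and 5 of 14. The share that fell was thus 34.6% and 42.3% of forward genes and 35.7% and 35.7% of retrograde genes. Of all genes, 15.7% in MH34 and 17.7% in B184 were lower at that rate.

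Within the coats, several ratios of subunit mRNAs differed between the same groups of libraries. The ratio of SEC13 to SEC31, whose products pair in the outer cage, was between 1.42 and 1.52 in AAC and B184 at 0.1/h and between 3.61 and 3.94 in the other 8 libraries, on the scale of CPM per kb. For SAR1 to SEC31 it was between 1.15 and 1.38 against 6.38 to 7.85. The small coatomer subunits RET3 and SEC28 relative to the large ones were between 1.42 and 1.65 against 2.67 to 3.19. ARF1 relative to ARF2 was between 0.365 and 0.477 against 0.679 to 0.786, so ARF2 was the more abundant in every library. SEC23 relative to the sum of SEC24, SFB2, and SFB3, all long genes of the inner coat, differed less. It was between 0.542 and 0.7 in AAC and B184 at 0.1/h against 0.707 to 0.798. Coatomer assembles from equal numbers of its subunits, but its highest and lowest subunit genes, RET3 and either SEC21 or COP1, differed by 2.24 to 2.91 times in AAC and B184 at 0.1/h and by 3.69 to 4.99 times elsewhere. Apart from those of ARF1 to ARF2 and of SEC23 to the SEC24 family, the ratios contrast short with long genes. The part of length and depth in them was not tested beyond the values given above.

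**Figure D5:**
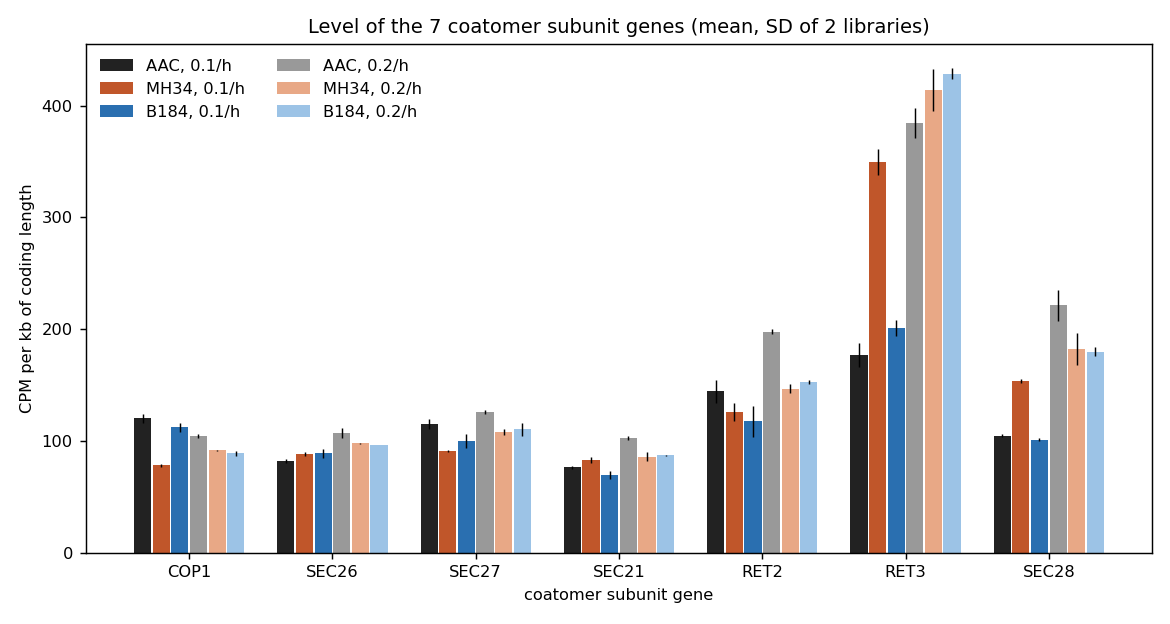
CPM per kb of coding length for the 7 coatomer subunit genes in the 6 groups, as mean (bars) and SD (lines) of 2 libraries. RET3 and SEC28 are low in AAC and B184 at 0.1/h, while COP1 is higher there than in MH34 at 0.1/h.

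A list of 44 other genes of ER-Golgi traffic (TRAPP and COG tethers, further SNAREs, receptors, Arf regulators, and golgins) gave the setting. In MH34 at 0.1/h 16 of them were higher and 16 lower (36.4% each), against 35.5% and 33.3% of all genes. In B184 at 0.1/h 5 were higher and 12 lower (11.4% and 27.3%), against 16.5% and 20.4%. At 0.2/h the counts were 4 and 4 in MH34 (9.09% each), against 17.4% and 15.7% of all genes. In B184 at that rate they were 5 and 3 (11.4% and 6.82%), against 18.4% and 17.7%. The 44 genes had a median log2 fold change at the higher rate of -0.01 in MH34 and -0.04 in B184, against -0.16 for the 42 members. The highest log2 fold changes in each comparison with AAC were of RER1, which encodes a retrieval receptor, or SED4, a paralog of SEC12. RER1 had 89.8 and 72.4 CPM in AAC, 205 and 206 in MH34, and 145 and 143 in B184, all at 0.1/h, with log2 fold changes of 1.34 and 0.83, and of 0.74 and 0.75 at 0.2/h. At 0.2/h SED4 was higher by 0.79 in MH34 and by 0.85 in B184. Both lie on chromosome III, where the 151 genes tested had a median log2 fold change over AAC between 0.835 and 0.985 in the 4 comparisons, and none of the 42 members lies on that chromosome. The lowest log2 fold changes were -1.24 for TRS23 in MH34 at 0.1/h (adjusted p = 2.0e-06), -0.57 for TRS65 in B184 at 0.1/h (adjusted p = 0.019), both TRAPP subunit genes, and at 0.2/h -0.32 for YIP1 in MH34 (adjusted p = 0.011) and, among those that passed, -0.32 for COG8 in B184 (adjusted p = 0.0055).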

How the data were processed

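RNA was sequenced from 12 chemostat cultures (TruSeq stranded mRNA, paired-end), 2 biological replicates for each of 6 combinations of strain and dilution rate. The deposited file holds raw read counts per gene, which the authors made; the paper names an nf-core RNA-seq pipeline with the Ensembl R64-1-1 genome, whereas the submitters' processing notes list TopHat2 2.0.12, Cufflinks 2.2.1, and Subread 1.4.6. The strand setting and the handling of reads with several positions are not given in the sources used here.

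Counts were fitted with edgeR 4.0.16 (R 4.3.3; TMM scaling, filterByExpr by group, robust quasi-likelihood) in 1 model of 6 groups, with Benjamini-Hochberg adjustment over the 6044 genes kept and a threshold of 0.05. With 2 libraries a group, the spread is shared over genes and groups (median prior df 4.99). The 11 comparisons set strains against each other within a rate, rates within a strain, and tested as an interaction whether a strain difference varied with rate. Totals of 6040221 to 10785960 counts gave members a median SE of 0.0741 to 0.0759 on the log2 scale (0.106 for interactions). The SE was the size of the log2 fold change divided by the square root of the quasi-likelihood F statistic. The members and lists were chosen with earlier results of these data known. Values in every library are given for SAR1, SEC12, ERV29, ARF1, ARF2, and ERD2, and for the called member with the largest change of each class in the comparisons with AAC and between rates. Values of other genes in the text were chosen after they were seen. Of the other genes of the pathway, the largest called rise and fall against AAC are named. Alternatives were DESeq2 1.42.0, other scalings and filters, the replicate number as a block, fits of only the groups compared, each library left out, other summaries of the directions, and, chosen after the data were seen, a trend on coding length removed (a smooth curve of log count on log length per library, 5712 genes) and thinning to equal depth. Sequences, lengths, and positions are from RefSeq (R64). A search for sorting signals in the proteins was not run. Scripts were tested on simulated counts, where 177 of 200 changed genes among 5996 were recovered for MH34 over AAC at 0.1/h, with 7 false calls. The simulation used a single dispersion for all genes, changed only well-counted genes, and changed far fewer genes than passed in the real comparison. Its figures check the scripts and do not measure recovery in these data. Of the 65 genes changed by the smallest fold simulated, 1.5, 42 were recovered. Figures were drawn with matplotlib 3.10.9.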

Additional observations from a re-analysis of the deposited data

Results flagged for a closer look

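The strain difference between MH34 and AAC depended on the dilution rate for 23 of the 42 genes, by edgeR's test of the interaction (adjusted p under 0.05, 53.1% of all genes). Values are the log2 fold change of MH34 over AAC at 0.2/h minus that at 0.1/h. Among COPII genes they were -1.42 for SAR1, -0.446 for SEC13, 0.421 for SEC24, 0.993 for SEC31, and 1.08 for SEC16. Among receptor genes they were -0.956 for ERV14, -0.946 for EMP47, -0.648 for ERV41, -0.58 for SVP26, 0.351 for ERV46, and 1.17 for EMP46. Among forward SNARE and tether genes they were -0.561 for YPT1, -0.311 for BOS1, -0.267 for SEC22, and 0.352 for USO1. Among COPI and Arf genes they were -1.65 for ARF1, -0.93 for ARF2, -0.875 for RET3, -0.837 for SEC28, -0.371 for SEC21, and 0.436 for COP1. Of the genes acting at the ER in return traffic, UFE1 had -0.386 and TIP20 0.305. Whichever single library was left out, 5 of the 8 positive and 13 of the 15 negative calls held, and 3 and 9 held under every alternative run. With the length trend removed, the calls of SEC24, USO1 (0.04, adjusted p = 0.75), COP1, TIP20, BOS1 (-0.17, 0.23), and SEC22 (-0.09, 0.47) were lost, and with library totals those of SEC13, SVP26, SEC21, UFE1, BOS1, and SEC22. Ethanol in the MH34 cultures at 0.1/h cannot be told apart from the strain in these values. For B184 over AAC, SEC18 differed in the same test, with -0.363 (adjusted p = 0.039). That call was lost when any 1 of 6 libraries was left out (adjusted p from 0.068 to 0.16), with library totals (0.074), with only the groups compared (0.09), with the replicate block (0.058), and with the length trend removed. Ethanol in the B184 cultures at 0.1/h cannot be told apart from the strain in it either.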

How the results depend on the processing

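Over all values of single genes and all alternatives, 5879 kept their side of the threshold, and those called also kept their direction. Another 348 lost the call, 110 gained one, and 5 turned direction with a call in either fit. Turns of direction among values called in neither fit were not counted. Asking also for a change of 0.5 or more on the log2 scale left 18, 2, 1, and 1 members in MH34 and B184 over AAC at 0.1/h and MH34 and B184 over AAC at 0.2/h, 15 in B184 over MH34 at 0.1/h, 17, 3, and 18 between rates in AAC, MH34, and B184, and 13 and 0 for the interactions of MH34 and B184. DESeq2 called 9 members in B184 over AAC at 0.1/h and 2 for the interaction of B184. Fits of only the groups compared called 5 in B184 over AAC at 0.1/h, 9 in MH34 over AAC at 0.2/h, and 0 for the interaction of B184, which was also 0 with library totals, with the length trend removed, and with the replicate block. The 15 correlations between the deviations of same-numbered replicates ranged from -0.201 to 0.371. Only 1 was over 0.1, that of AAC and MH34 at 0.2/h, and a deviation shared by those groups was not tested further. The main fit did not pair the cultures by number. With the replicate block, 31, 11, 14, and 20 members passed against AAC, 24 and 0 between the evolved strains, 31, 17, and 32 between rates, and 22 and 0 for the interactions. Without single libraries, counts ranged from 27 to 34, 8 to 12, 9 to 14, and 8 to 15 against AAC in the same order, from 20 to 24 and 0 to 0 between evolved strains, from 28 to 31, 4 to 13, and 29 to 31 between rates, and from 18 to 24 and 0 to 6 for the interactions.

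The forward minus retrograde median moved with the length trend removed to -0.527 in MH34 over AAC and 0.318 in B184 over MH34 at 0.1/h, -0.129 and -0.111 between rates in AAC and B184, and 0.287 for the interaction of MH34. With coat genes only it was -0.597 in MH34 and 0.072 in B184 over AAC at 0.1/h, 0.431 in B184 over MH34 at 0.1/h, -0.306, 0.069, and -0.313 between rates, and 0.528 for the interaction of MH34. With means it was -0.104 in B184 over AAC at 0.1/h, -0.078 in MH34 over AAC at 0.2/h, and -0.208 and -0.194 between rates in AAC and B184. Without SEC13, SEC22, ERV41, and ERV46 it was 0.307 in B184 over MH34 at 0.1/h. Without single libraries it ranged from -0.029 to 0.048 in B184 over AAC at 0.1/h, -0.096 to 0.047 in MH34 over AAC at 0.2/h, 0.022 to 0.078 and -0.09 to 0.071 between rates in MH34 and B184, and 0.128 to 0.286 for the interaction of MH34. With the length trend removed, SEC26 turned to -0.21 in B184 over MH34 at 0.1/h, BET1 to -0.24, USO1 to 0.03, and COP1 to 0.06 between rates in AAC, and SEC22 to -0.19 between rates in B184. The cause was not tested. With 2 libraries a group, differences near the SE of about 0.0741 could not be told from the spread between replicates.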
